A study of Mus musculus with 6 samples.

Results

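Cholesterol synthesis, its control by SREBP, and the uptake, transport, storage and efflux of sterol were followed through 30 genes in mouse pluripotent cells. The members were picked by name, by their step in the pathway, and each of the 30 was found as a row among the 51826 Ensembl genes of the count table. They comprised 18 enzymes of synthesis, 5 SREBP control genes, 4 genes of uptake and intracellular transport, and 3 genes of efflux and esterification. The 6 RNA libraries came from wild-type V6.5 cells, an established mouse embryonic stem cell line. Of these, 3 were embryonic stem cells (ESC) kept with LIF and inhibitors of GSK3 and MEK, which hold the naive state. The other 3 were epiblast-like cells (EpiLC) on day 3 after LIF and both inhibitors were taken away. Both media contained fetal bovine serum, itself a source of lipoprotein cholesterol. The labels do not say whether libraries of a state came from separate cultures, so p-values measure the spread between these libraries, which may be technical.

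Cholesterol is built from acetyl-CoA. The mevalonate pathway makes farnesyl diphosphate, which is joined head to head into squalene, cyclised to lanosterol and then trimmed and rearranged to cholesterol. SREBP transcription factors, escorted by SCAP and held in the endoplasmic reticulum by INSIG proteins when sterol is plentiful, switch on most of these enzymes. Liver X receptors (LXR) sense oxysterols and are known to switch on the exporters ABCA1 and ABCG1, the ubiquitin ligase MYLIP, which removes lipoprotein receptors, and SREBF1. Sterol that enters through endosomes is handed on by NPC2 and NPC1, and surplus is esterified for storage by SOAT1.

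The proximal promoters of some members are shown first, as examples, because many members share a short motif there. The RefSeq promoter table (GRCm38.p6, 250 bases before to 50 after each start) held 24 of the 30 members. Fdps, Fdft1, Sqle, Npc1, Stard4 and Abcg1 were not in it. In the stretches below, bases -100 to -6 from the RefSeq start on the gene's strand, capitals mark CCAAT or its complement ATTGG, the core letters bound by NF-Y, a factor that works beside SREBP. In Abca1 they mark a direct repeat of the kind that LXR binds. Hmgcs1 and Sc5d rose, Mvk and Ebp fell, and Soat1 and Abca1 changed most. Mylip and Npc2, which also passed 2-fold, are not shown. Several listed promoters of other members, such as those of Scap and Acat2, have no CCAAT in these bases.
Hmgcs1 (chr13:119690251-119690345, plus strand): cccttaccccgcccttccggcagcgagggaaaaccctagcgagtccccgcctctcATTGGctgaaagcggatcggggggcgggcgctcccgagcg
Sc5d (chr9:42264306-42264400, minus strand): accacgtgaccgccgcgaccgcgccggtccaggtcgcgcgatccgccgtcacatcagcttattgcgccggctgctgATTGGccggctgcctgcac
Mvk (chr5:114444169-114444263, plus strand): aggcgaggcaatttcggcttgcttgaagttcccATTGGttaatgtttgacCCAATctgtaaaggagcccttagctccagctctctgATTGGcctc
Ebp (chrX:8193518-8193612, minus strand): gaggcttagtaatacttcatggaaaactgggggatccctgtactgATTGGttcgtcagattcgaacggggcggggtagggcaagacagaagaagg
Soat1 (chr1:156474334-156474428, minus strand): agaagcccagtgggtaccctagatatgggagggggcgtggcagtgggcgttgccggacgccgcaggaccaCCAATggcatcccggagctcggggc
Abca1 (chr4:53159901-53159995, minus strand): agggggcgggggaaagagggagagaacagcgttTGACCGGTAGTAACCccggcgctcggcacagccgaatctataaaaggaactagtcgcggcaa

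A gene can have several listed starts, and 21 of the 24 member genes (87.5%) had CCAAT, on either strand, at 1 or more of theirs. The same held for 11096 of 27025 genes in the table (41.1%) and 4620 of 10673 genes with enough reads to be tested here (43.3%). Counted by promoter, it was in 22 of the members' 32 listed promoters (68.8%) and in 12289 of all 32851 (37.4%). The genes with it were of each outcome, namely 9 of 9 members that rose, 6 of 8 that fell and 6 of 7 without a call. Among all tested genes with a listed promoter, 38.6% of those that rose, 47.2% of those that fell and 43.5% of those without a call had it. A strict SREBP motif, TCACNCCAC on either strand, was found in 1 of 24 members, Hmgcs1, and in 1.44% of all genes. It lies 137 bases before the Hmgcs1 start, in the window chr13:119690184-119690252 (plus strand), where capitals mark it.
Hmgcs1: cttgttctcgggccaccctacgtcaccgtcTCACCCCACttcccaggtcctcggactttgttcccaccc
The E-box TCACGTGA was in none of the 24 and in 1.12% of all genes, and the perfect LXR repeat, AGGTCA and again AGGTCA after any 4 bases, in none of the 24 and in 4 genes overall. These searches used fixed letters, and a missing match says only that those letters are not in the window.

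The Abca1 repeat, TGACCGGTAGTAACC at base -67, is the stretch of that promoter closest to the perfect repeat. It was turned into another search with fixed letters, GGTTANNNNCGGTCA (N is any base), chosen after that sequence was seen. The perfect repeat itself does not match these letters. On either strand these letters occurred in 4 of 27025 genes, and 2 of them are members. Abca1 was bound to match, because the letters came from its promoter, so Srebf1 is the only member that the search found. The Abca1 stretch had 3 mismatches to the perfect repeat, and the next closest stretch of that promoter had 5. The 4 genes were Abca1, Srebf1 (at the most downstream of its 3 listed starts), the fatty acid synthase gene Fasn and Prrg4. The sites of the lipid genes are given, in capitals with 15 bases to each side, so that they can be compared.
Abca1 (chr4:53159933-53159977, minus strand): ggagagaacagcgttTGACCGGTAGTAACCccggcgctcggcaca
Srebf1 (chr11:60210624-60210668, minus strand): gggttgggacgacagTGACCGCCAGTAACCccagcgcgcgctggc
Fasn (chr11:120824743-120824787, minus strand): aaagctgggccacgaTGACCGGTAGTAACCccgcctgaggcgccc
Among these genes Abca1 and Srebf1 fell and Fasn rose.

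Library totals ran from 9710410 to 22879812 counts, and the 30 genes took 0.251% to 0.263% of the counts in ESC and 0.311% to 0.375% in EpiLC. ESC replicate 3 stood apart from its group, where a chi-square test of the counts gave 17.3 and 17.7 per degree of freedom against the other ESC libraries and 1.77 to 3.05 for all other pairs of replicates. Naive markers matched the labels, with 8 of 8 lower in EpiLC (Esrrb, Klf4, Klf2 and Zfp42 among them), and of 7 formative markers 5 were higher (Fgf5, Otx2, Pou3f1 and Dnmt3b among them), Pou5f1 was lower and Utf1 was not called. Markers of endoderm, a tissue that handles lipoproteins, summed to 19.0 to 26.1 CPM (counts normalised for library size by TMM) in ESC and 22.0 to 23.7 CPM in EpiLC. Of the 12, 6 were tested, with 3 higher and 3 lower (Gata4 and Dab2 higher, Sox17 lower, Gata6 not tested). Afp had no counts in any library. Fibroblast markers summed to 7.89 to 9.64 CPM in ESC and 273 to 321 CPM in EpiLC, most of it from Tagln. Of 10 such genes 7 were tested, 5 higher and 0 lower, with Col1a1, Col1a2 and Dcn below 5 CPM and Col3a1, Lum and Postn below 1 CPM in every library. The part of these cells in the results below was not tested, and in bulk RNA fewer cells of a type and less RNA per cell cannot be told apart.

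On leaving the naive state, most genes of the pathway changed, in both directions, as did most of all genes tested. All 30 genes were tested with edgeR's quasi-likelihood test, and 22 (73.3%) were called at an adjusted p under 0.05, against 64.6% of the 14996 genes tested. Of these, 13 rose in EpiLC (32% of all genes did) and 9 fell (32.6% of all genes). Most changes were small, since 5 genes passed 2-fold, against 29.4% of all genes. Of these 1 rose (17% of all genes) and 4 fell (12.4%). For 22 of the 30 the 95% interval stayed inside 2-fold in both directions, against 54.5% of all genes. In 14 genes every EpiLC library was above every ESC library and in 10 every EpiLC library was below, so 6 overlapped, against a non-overlapping share of 70.2% over all genes. The median log2 fold change (EpiLC minus ESC) of the 30 was 0.15, beside 0.01 over all genes. Without ESC replicate 3, 27 members were called, 16 higher and 11 lower, while calls over all genes also went up, to 76.7% of 15296 (38% higher and 38.7% lower).

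**Figure D1:**
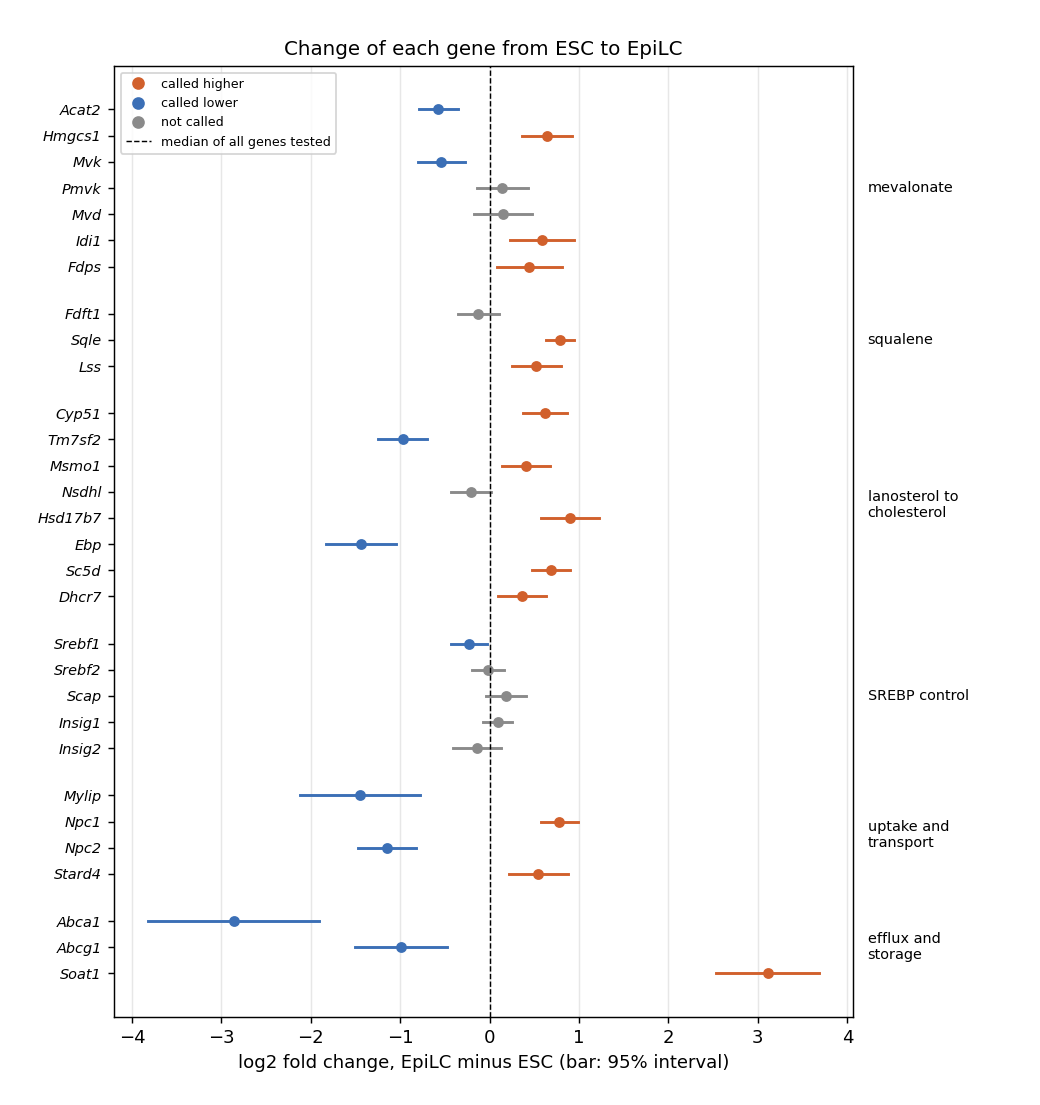
Log2 fold change (EpiLC minus ESC, horizontal axis) with its 95% interval for each of the 30 genes, grouped by step, with the median of all genes tested as a dashed line. Soat1 lies farthest to the right at 3.11 and Abca1 farthest to the left at -2.86, while 4 of the 5 SREBP control genes are not called.

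The enzymes of synthesis rose in the main, and modestly. Of 18, 10 rose, 4 fell and 4 were not called, and their median change was 0.39 on the log2 scale. Over all genes tested, 32% rose and 32.6% fell, with a median of 0.01. The summed level of the 18 enzymes went from 1622 to 1732 CPM in the ESC libraries to 1936 to 2480 CPM in the EpiLC libraries, and the groups did not overlap. Only 1 of the 18, Ebp, changed by at least 2-fold. The 10 higher were 9 with DESeq2, 8 without the filter on low counts, 7 without ESC replicate 2 or EpiLC replicate 1, and 12 without ESC replicate 3.

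Of the 7 enzymes in the mevalonate segment, 3 rose, 2 fell and 2 had no call. Their median change was 0.15 on the log2 scale. Calls covered 71.4% of the segment, against 64.6% of all genes tested, of which 32% rose and 32.6% fell. In so few genes, these counts say nothing particular about the segment. Hmgcs1, which condenses acetyl-CoA and acetoacetyl-CoA to HMG-CoA (ENSMUSG00000093930, chromosome 13, 119690379 to 119708260 on GRCm38), measured 436, 408 and 386 CPM in ESC and 767, 540 and 614 CPM in EpiLC, given here and below in the order of replicates 1, 2 and 3. All EpiLC libraries were above all ESC libraries, and EpiLC replicate 1 was well above the others. The gene rose 1.56-fold (log2 fold change 0.64 ± 0.12 SE, edgeR adjusted p = 0.00197). At the step before it, Acat2, the cytosolic thiolase that makes acetoacetyl-CoA, went the other way. It measured 112, 106 and 96.4 CPM in ESC and 79.0, 66.6 and 66.2 CPM in EpiLC, a fall of 1.49-fold without overlap. Its neighbour Acat3 matches 97.7% of bases over a stretch of 1477, so reads may be split between them, although Acat3 reached at most 2.01 CPM. Tcp1, on the same chromosome, matches 98.65% of bases over a stretch of 445. It was far higher, at means of 990 CPM in ESC and 1057 CPM in EpiLC, and was not called. How reads from that stretch were assigned is not known here, so the level of Acat2 is uncertain.

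Mvk, the mevalonate kinase, also fell, from 35.4, 31.9 and 36.7 CPM to 27.2, 20.96 and 23.3 CPM (1.45-fold). The next enzymes did not pass the test. Pmvk, the phosphomevalonate kinase, was at 49.1 ± 8.03 CPM in ESC and 54.1 ± 4.38 CPM in EpiLC (mean ± SD, n = 3), and the decarboxylase gene Mvd at 68.5 ± 10.6 and 75.8 ± 11.9 CPM. For both, ESC replicate 3 was the highest ESC library, and without it both were called higher (log2 fold changes 0.26 and 0.24). Idi1, the isopentenyl diphosphate isomerase, rose 1.5-fold from 4.2, 4.19 and 4.70 CPM to 7.13, 5.73 and 6.70 CPM. Fdps, which makes farnesyl diphosphate, stood at 15.3, 10.8 and 13.5 CPM in ESC and 20.4, 16.1 and 17.3 CPM in EpiLC and rose 1.36-fold. These 2 genes had the fewest reads in the segment, and their levels are uncertain. Idi1 has a pseudogene, Gm13502, identical to it over 684 bases, and Fdps shares 26.7% of its exon bases with the overlapping model Gm43738, and both of these models held 0 counts in every library. The rise of Fdps had an edgeR adjusted p = 0.0353, with 0.00866 to 0.130 across alternatives, and was not called with DESeq2 (0.0575), without the filter on low counts (0.0827), or without ESC replicate 2, EpiLC replicate 1 or EpiLC replicate 3.

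Both enzymes that turn squalene into lanosterol rose, whereas squalene synthase did not change detectably. Fdft1, the synthase, was at 110 ± 7.86 CPM in ESC and 101 ± 13.2 CPM in EpiLC, with an interval of the log2 fold change from -0.36 to 0.11. It shares 18.3% of its exon bases with Ctsb on the other strand, a gene that fell by 1.004 on the log2 scale, and whether the counting used strand is not known here. The pseudogene Gm6781 matches 97.44% of Fdft1 bases over a stretch of 1249 and reached at most 0.348 CPM. How such reads were assigned is not known either, so the level of Fdft1 is uncertain. Sqle, the epoxidase that commits squalene to sterols (ENSMUSG00000022351, chromosome 15, 59315077 to 59331192), was tightly grouped at 165, 161 and 149 CPM in ESC and at 285, 256 and 277 CPM in EpiLC. It rose 1.72-fold without overlap (log2 fold change 0.79 ± 0.07 SE, edgeR adjusted p = 2.57e-05). Lss, the lanosterol synthase, rose 1.43-fold from 110, 91.4 and 86.1 CPM to 157, 123 and 133 CPM.

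In the segment between lanosterol and cholesterol, 5 of 8 enzymes rose, 2 fell and 1 was not called (median log2 fold change 0.39). Over all genes tested, 32% rose and 32.6% fell. Cyp51, the lanosterol demethylase, was at 198, 179 and 165 CPM in ESC and at 315, 243.7 and 272 CPM in EpiLC, a rise of 1.53-fold. Hsd17b7, the ketoreductase of the demethylation complex, had the largest rise of the 18 enzymes, 1.86-fold, from 15.5, 18.2 and 22.3 CPM to 37.2, 31.1 and 35.1 CPM. Sc5d, a desaturase near the end of the pathway, rose 1.61-fold from 43.4 ± 4.12 to 69.9 ± 4.65 CPM. In each of these genes all EpiLC libraries exceeded all ESC libraries. The groups did not overlap, in either direction, in 70.2% of all genes tested.

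Msmo1, the methylsterol oxidase, and Dhcr7, the last reductase of one branch, rose less. Msmo1 went from 203, 208 and 261 CPM to 325, 261 and 304 CPM, so the highest ESC library, replicate 3, lay close to the lowest EpiLC library. Its 1.33-fold rise lost its call when ESC replicate 1 or 2, or EpiLC replicate 1 or 3, was left out. Dhcr7 rose 1.29-fold, from 36.1 ± 3.72 to 46.7 ± 5.98 CPM, and lost its call when low counts were not filtered and when ESC replicate 2 or EpiLC replicate 1 was left out.

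Of the 4 enzymes that fell, Acat2 and Mvk belong to the mevalonate segment and Ebp and Tm7sf2 to this one. Ebp, the sterol isomerase that moves the ring double bond (ENSMUSG00000031168, chromosome X, 8185329 to 8193512), was at 50.4, 50.2 and 34.5 CPM in ESC and 19.2, 14.7 and 16.5 CPM in EpiLC. ESC replicate 3 was the lowest ESC library and still above every EpiLC library. Ebp fell 2.70-fold (log2 fold change -1.43 ± 0.17 SE, edgeR adjusted p = 0.000134). Tm7sf2, a sterol reductase acting directly after Cyp51, fell 1.96-fold from 28.8, 29.6 and 30.6 CPM to 17.8, 14.4 and 13.3 CPM. It shares 12.1% of its exon bases with Vps51 on the same strand, which stood at means of 26.8 and 28.7 CPM and was not called. Nsdhl, the decarboxylating dehydrogenase, was at 34.6 ± 3.12 and 29.97 ± 2.07 CPM and was not called, but was lower without ESC replicate 3 (log2 fold change -0.26, edgeR adjusted p = 0.0102, with 0.0102 to 0.248 across alternatives).

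**Figure D2:**
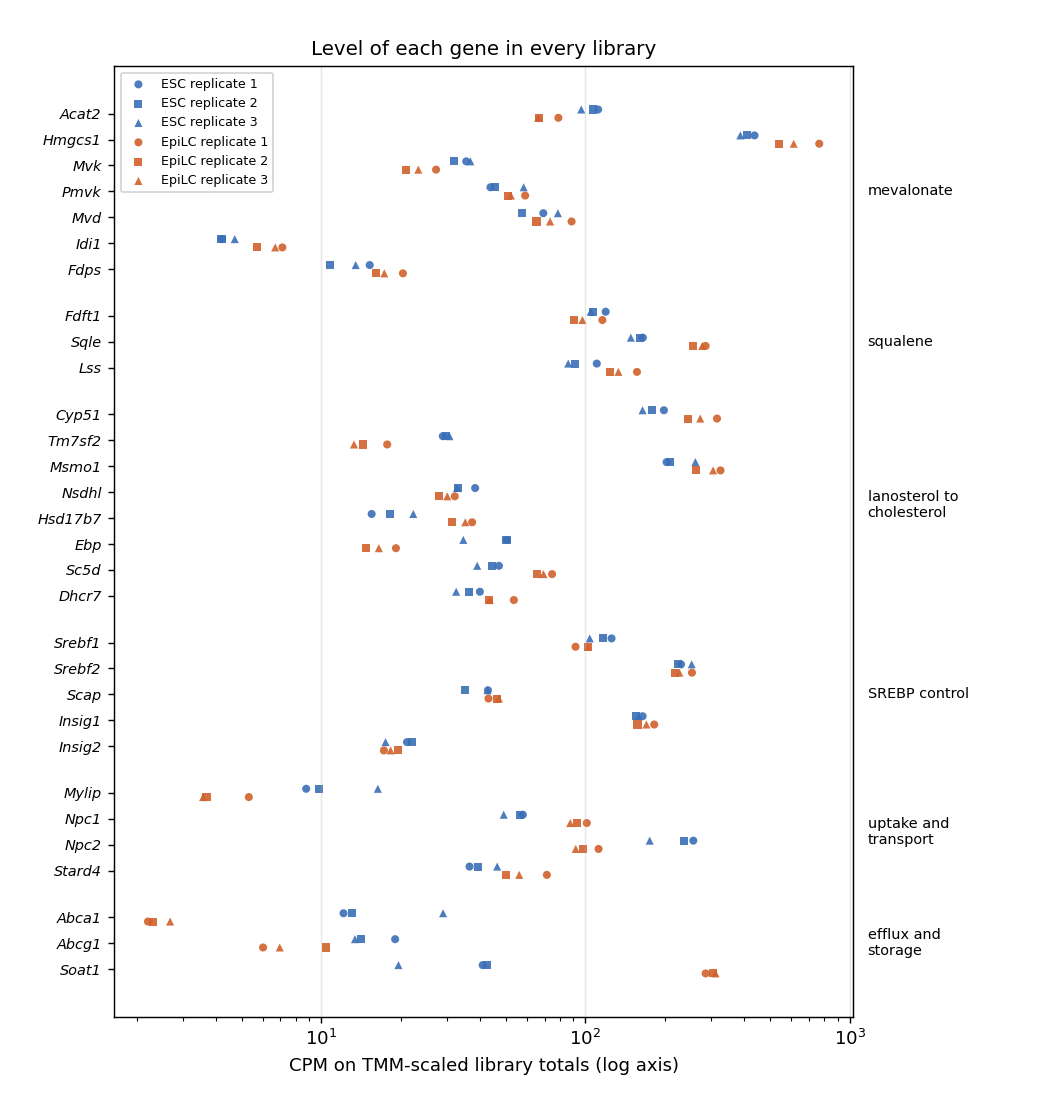
Level of each gene in every library in CPM (log axis), ESC in blue and EpiLC in orange, with replicates 1, 2 and 3 as circle, square and triangle. Hmgcs1 is the highest in both states, Soat1 moves from between 19.6 and 42.5 CPM to between 285 and 311 CPM, and the SREBP control genes keep almost the same place.

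The enzymes also moved together among the 3 EpiLC libraries, where the state is the same. EpiLC replicate 1 was the highest of the 3 for 18 of 18 enzymes, against 36.5% of all genes tested, and replicate 2 the lowest for 16 of 18, against 30.7%. Replicate 1 exceeded replicate 2 by a median of 0.31 on the log2 scale over the enzymes, ranging from 0.16 for Sqle to 0.51 for Hmgcs1, beside a median of -0.00049 over all genes. Enzymes that fell between the states, such as Ebp (0.38) and Mvk (0.38), showed it as did those that rose. All 18 had replicate 1 highest with each of the 4 scalings tried, and replicate 2 was lowest for 15 to 17 of them. This was not limited to the enzymes. Replicate 1 was also highest for 4 of 4 uptake and transport genes, with a median difference of 0.35 (Mylip 0.53, Stard4 0.51, Npc2 0.20, Npc1 0.13), and for Srebf2 (0.22) and Insig1 (0.21), whereas Srebf1 (-0.15), Scap (-0.11) and Insig2 (-0.18) had replicate 1 lowest. Among the efflux and esterification genes, replicate 1 was highest for 0 of 3 (Abcg1 -0.79, Soat1 -0.09, Abca1 -0.06). Of the 15 fatty acid genes 8 had replicate 1 highest, with a median difference of 0.03. This is a description of 3 libraries, and what set replicate 1 apart was not tested.

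**Figure D3:**
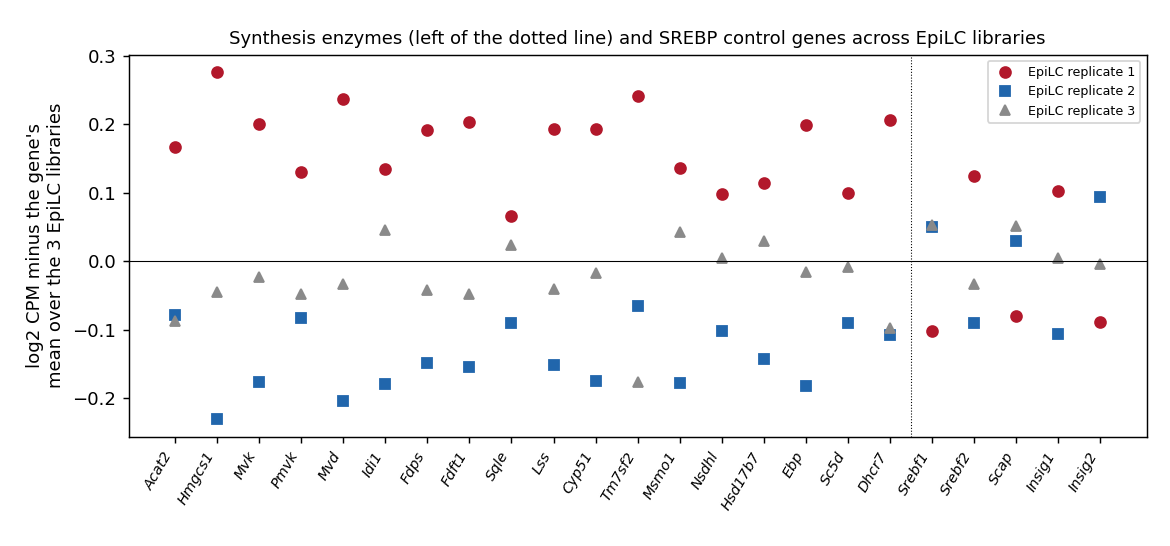
Log2 CPM of each enzyme and SREBP control gene in the 3 EpiLC libraries, minus the mean of that gene over the 3 (vertical axis). Replicate 1 (red circles) is on top for each of the 18 enzymes to the left of the dotted line, and for Srebf2 and Insig1 among the 5 genes to its right.

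Transcripts of the 5 SREBP control genes among the members stayed nearly level. Of 5 genes 0 rose and 1 fell, the median log2 fold change was -0.02, and the whole interval lay within 2-fold for 5 of 5. Of all genes tested, 64.6% were called and 54.5% had the whole interval within 2-fold. Srebf2, which encodes the SREBP of cholesterol synthesis, stood at 230, 224 and 252 CPM in ESC and 253, 218 and 227 CPM in EpiLC, with overlapping groups and an interval of the log2 fold change from -0.20 to 0.16. Scap, which encodes the escort, was at 40.2 ± 4.37 and 45.5 ± 2.19 CPM. Insig1, itself a target of SREBP, was at 165, 155 and 159 CPM in ESC and 182, 157 and 170 CPM in EpiLC (log2 fold change 0.09, interval -0.07 to 0.25). Insig2 was at 20.2 ± 2.38 and 18.4 ± 1.16 CPM. Srebf1, whose product mainly drives fatty acid genes, was at 126, 117 and 104 CPM in ESC and 91.7, 102 and 102 CPM in EpiLC. It fell 1.17-fold and only just passed the test (edgeR adjusted p = 0.0458, with 0.000198 to 0.160 across alternatives). It was not called with upper quartile scaling (0.0879), library totals (0.0988), the replicate block (0.0877) or without any single library other than ESC replicate 3. Counts per gene do not tell its alternative starts apart. Without ESC replicate 3, Scap was called higher (log2 fold change 0.22) and Insig2 lower (-0.24).

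Within each library, partners of the same step were compared per length, as CPM per kilobase of merged exons. The level of Insig1 was 8.75, 7.92 and 10.2 times that of Insig2 in ESC and 11.8, 9.03 and 10.4 times in EpiLC, ranges that overlap (p = 0.2, exact two-sided permutation test, 0.267 after Benjamini-Hochberg adjustment over 4 ratios). The Srebf1 to Srebf2 ratio was 0.696, 0.664 and 0.524 in ESC and 0.462, 0.596 and 0.575 in EpiLC (exact permutation p = 0.3, adjusted 0.3). For both ratios the states overlapped. With 3 libraries against 3 this exact permutation test cannot go below p = 0.1.

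The genes of uptake and transport all changed, 2 of 4 upward and 2 downward, where 64.6% of all genes tested were called. The paired carriers of late endosomes moved apart. Npc2, the soluble carrier (ENSMUSG00000021242, chromosome 12, 84754562 to 84773152), fell 2.21-fold from 256, 236 and 175 CPM to 112, 97.9 and 91.9 CPM (log2 fold change -1.15 ± 0.14 SE, edgeR adjusted p = 0.000179). Npc1, the membrane protein that receives sterol from it (ENSMUSG00000024413, chromosome 18, 12189692 to 12236400), rose 1.72-fold from 58.0, 56.4 and 49.0 CPM to 101, 92.6 and 87.6 CPM (log2 fold change 0.78 ± 0.09 SE, edgeR adjusted p = 0.000109). ESC replicate 3 was the lowest ESC library for both, and neither gene's groups overlapped. Per length, the Npc1 to Npc2 ratio was 0.109, 0.115 and 0.135 in the ESC libraries and 0.434, 0.454 and 0.458 in the EpiLC libraries. It reached the smallest exact permutation p of 0.1 (0.2 adjusted over 4 ratios).

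Mylip fell 2.73-fold. It was at 8.77, 9.82 and 16.4 CPM in ESC, with replicate 3 highest, and at 5.32, 3.68 and 3.57 CPM in EpiLC (log2 fold change -1.45 ± 0.29 SE, edgeR adjusted p = 0.00252, and -1.18 without ESC replicate 3). Stard4, a soluble sterol carrier and SREBP target, rose 1.46-fold from 36.4, 39.2 and 46.3 CPM to 71.5, 50.1 and 56.2 CPM, and EpiLC replicate 1 was again the highest.

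The largest changes of all 30 genes were in efflux and esterification, and they ran in opposite directions. Soat1, the enzyme that esterifies cholesterol for storage in droplets (ENSMUSG00000026600, chromosome 1, 156424525 to 156474331), was at 40.8, 42.5 and 19.6 CPM in ESC and at 285, 303 and 311 CPM in EpiLC. ESC replicate 3 was the lowest library, and the lowest EpiLC library was far above the highest ESC library. Soat1 rose 8.62-fold (log2 fold change 3.11 ± 0.25 SE, edgeR adjusted p = 1.57e-05), and 611 of the 14996 genes had a higher log2 fold change. Without ESC replicate 3 the value was 2.83. Soat2, which encodes the second cholesterol-esterifying enzyme and is no member, had few reads and fell from 2.54, 3.29 and 3.31 CPM to 0.301, 0.684 and 0.536 CPM.

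Both exporters fell. Abca1, which loads cholesterol onto lipid-poor apolipoprotein (ENSMUSG00000015243, chromosome 4, 53030787 to 53159895), was at 12.1, 13.1 and 28.9 CPM in ESC and at 2.21, 2.31 and 2.68 CPM in EpiLC. ESC replicate 3 was the highest library by far. Abca1 fell 7.27-fold (log2 fold change -2.86 ± 0.42 SE, edgeR adjusted p = 0.000435), and 511 genes had a lower value. Without ESC replicate 3 it was -2.41. Abcg1, which exports cholesterol to larger lipoproteins, fell 1.99-fold from 19.0, 14.1 and 13.4 CPM to 6.02, 10.4 and 6.96 CPM (log2 fold change -0.99 ± 0.22 SE, edgeR adjusted p = 0.00475). Per length, the Abca1 to Abcg1 ratio was 0.449, 0.653 and 1.52 in ESC and 0.258, 0.156 and 0.271 in EpiLC, without overlap (exact permutation p = 0.1, the smallest possible, 0.2 adjusted over 4 ratios).

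**Figure D4:**
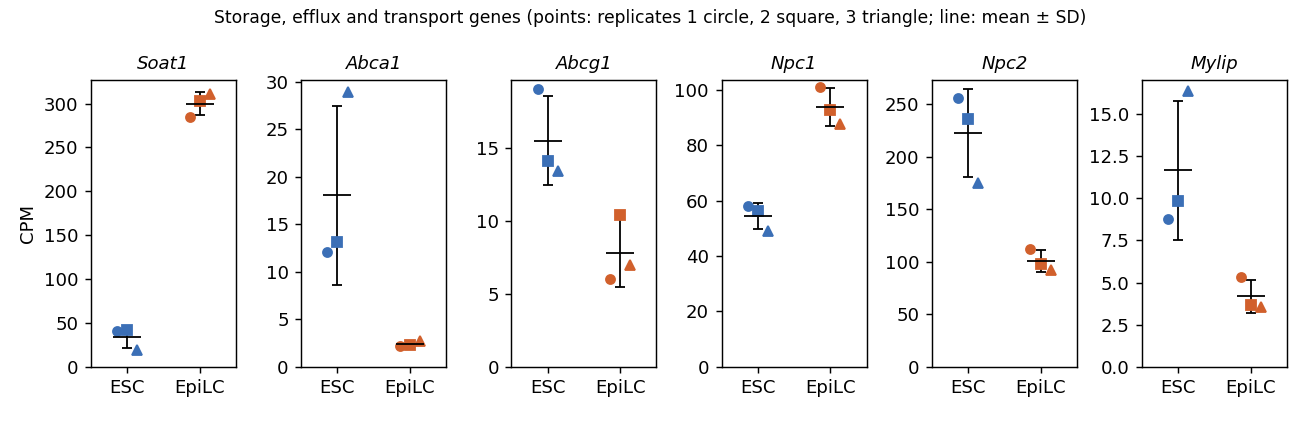
CPM of Soat1, Abca1, Abcg1, Npc1, Npc2 and Mylip in each library, with the mean and SD of each state (n = 3, linear axes from 0). The states do not overlap in any of the 6 genes, and ESC replicate 3 (triangle) is the farthest from the other ESC libraries for Soat1, Abca1, Npc1, Npc2 and Mylip.

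Levels of different genes can be compared per length. Hmgcs1 had the highest level of the 30 in both states, 89.3 ± 5.53 CPM per kilobase in ESC and 139 ± 25.3 in EpiLC. In ESC the next were Insig1 (51.6 ± 1.53), Acat2 (41.2 ± 3.04), Npc2 (40.9 ± 7.77) and Cyp51 (40.9 ± 3.82), of which the last 3 overlapped within their SD. In EpiLC they were Cyp51 (62.7 ± 8.11), Insig1 (54.9 ± 3.98), Sqle (49.1 ± 2.73) and Msmo1 (48.3 ± 5.27), a run in which neighbours overlapped within their SD. Acat2 moved from place 3 to place 10 and Npc2 from place 4 to place 12, while Soat1 moved from place 26 (3.51 ± 1.31) to place 9 (30.6 ± 1.34). Idi1 was last in ESC (1.25 ± 0.084) and Abca1 last in EpiLC (0.231 ± 0.024). The places of genes with copies or overlaps, such as Acat2, Idi1, Fdps and Fdft1, are uncertain. How their shared reads were counted is not known here.

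The neighbouring pathways, from lists sorted by function, showed no common direction. Over all genes tested, 32% rose and 32.6% fell, with a median log2 fold change of 0.01. Counts near these shares say nothing particular about a list. Of 16 genes that process SREBP, control sterol-dependent protein decay or assist sterol enzymes, 5 rose, 5 fell and 6 were not called (median log2 fold change -0.08). The reductase gene Cyb5r3, which feeds electrons to sterol enzymes, fell 2.50-fold from 168, 158 and 110 CPM to 63.5, 55.0 and 55.9 CPM.

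Of 15 genes of fatty acid synthesis and desaturation, 4 rose, 6 fell and 5 were not called (median -0.19, and 0.09 without ESC replicate 3). Mid1ip1, an activator of acetyl-CoA carboxylase, rose 3.43-fold and the desaturase gene Scd1 fell 2.31-fold, from 245.2, 221 and 355 CPM to 128, 113 and 114 CPM. Acss2, which makes acetyl-CoA from acetate, fell 1.79-fold. Fasn, named for its repeat above, rose 1.46-fold from 773 ± 70.6 to 1130.4 ± 60.7 CPM.

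Of 20 tested genes among 22 for other lipoprotein receptors, sterol carriers, hydroxylases and LXR, 8 rose, 8 fell and 4 were not called (median -0.05, and 0.10 without ESC replicate 3). The sterol carrier gene Gramd1c rose from 0.104, 0.631 and 0.610 CPM to 3.51, 3.42 and 3.39 CPM. Lipa, the lysosomal lipase that frees cholesterol from its esters, rose 3.61-fold from 4.83, 4.96 and 2.53 CPM to 15.2, 14.3 and 16.96 CPM. The receptor genes themselves, named after their values were seen, differed, as Nr1h2 fell 1.25-fold to 36.1 ± 1.88 CPM with overlapping groups and the scarce Nr1h3 rose 2.16-fold to 1.42 ± 0.354 CPM. Of 14 genes on other branches from farnesyl diphosphate, 3 rose, 4 fell and 7 were not called (median 0.01). The falls were led by Fntb, a subunit of farnesyltransferase (2.85-fold, from 54.7 ± 0.256 to 19.2 ± 1.35 CPM), Rabggta (1.96-fold) and Pdss1 (1.45-fold).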

How the data were processed

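Total RNA was depleted of ribosomal RNA and made into stranded libraries, per the labels' protocols. The authors deposited raw read counts per Ensembl gene for 6 libraries. Of tools, cutadapt, STAR, featureCounts and DESeq2 are listed, with the mm10 build, per the submitters' processing notes. Nothing there says which versions or gene models were used, whether strand was counted, or how reads with several matches were treated. The 92 spike-in rows held 0 counts and were left out.

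The counts were tested with edgeR 4.0.16 in R 4.3.3: TMM scaling, a filter on low counts (filterByExpr, minimum count 10), and the quasi-likelihood test of EpiLC against ESC over 14996 genes, with Benjamini-Hochberg adjustment at 0.05 over all of them. CPM uses TMM-scaled totals. A count of 3 equals 0.135 to 0.301 CPM, by library. Gene positions and lengths came from GENCODE on GRCm38, and sequence copies were searched with BLAST 2.17.0. On simulated data of 14659 genes with the sizes of these libraries, 30 of 49 genes changed by 1.5-fold and 40 of 50 changed by 2-fold were recovered. Of 14461 unchanged genes, 9 were called. The simulation changed few genes, gave every gene the same spread and held no outlying library, so its rates need not be those of these data.

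Members, lists and tests were chosen with earlier results of these data known. All members were named; of each pathway list, up to 3 called genes with the largest change and at least 1 CPM in the higher group; of each marker list, up to 4 in list order. Some genes that this rule picks are not reported here. Other genes are named for a shared sequence, an overlap or as markers, after their values were seen. Alternatives were upper quartile, RLE and library-total scaling, no filter, DESeq2 1.42.0, limma-voom (limma 3.58.1), a replicate block, leaving out each library, and promoters without the bases after the start. The search for GGTTANNNNCGGTCA was added after seeing the data.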

Additional observations from a re-analysis of the deposited data

How the results depend on the processing

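Of 390 member fold changes under the alternatives, 361 kept their call and direction, 20 lost the call, 5 gained it and 4 changed direction. All 4 were of Srebf2, which was not called: 0.028 with upper quartile scaling, 0.047 with library totals, and from -0.082 to 0.021 as libraries were left out, positive without ESC replicate 3 (0.019) or EpiLC replicate 2 (0.021). Leaving out ESC replicate 3 gave 5 new calls, and over all genes moved the calls from 9686 to 11730. The count of SREBP control genes called lower was 0 with upper quartile scaling, library totals and the replicate block, and 0 to 2 when single libraries were left out (called higher, 0 to 1). Left-out libraries gave 2 to 5 mevalonate genes and 3 to 5 genes after lanosterol called higher.

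For the SREBP processing list, the median was -0.033 with upper quartile scaling, -0.013 with library totals, -0.15 without the filter and -0.12 to -0.057 with libraries left out, and 3 genes were called higher without the filter and 3 to 5 with libraries left out. For the other branches the median was 0.058, 0.079, -0.063 and -0.054 to 0.027 in the same order. The fatty acid median ran from -0.24 to 0.094 and the sterol handling median from -0.14 to 0.096, with 5 to 10 called higher, as libraries were left out. The cause was not tested. Library totals moved the median of all genes to 0.08 and no filter to -0.06. With only the 250 bases before each start, 21 of 24 member genes had CCAAT at 1 or more listed starts, against 37.5% of all genes.

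Samples with the same replicate number did not deviate together (correlations -0.09, -0.01 and -0.15), so the numbers were not taken as pairs, and the replicate block changed the call of 1 member, Srebf1 (21 of 30 called). With 3 libraries a state, small changes can be missed. The simulation recovered 61.2% of 1.5-fold changes, but with few changed genes and an even spread, so this share does not measure recovery in these data.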
